A study of Homo sapiens with 6 samples.

Results

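Glycolysis and the response to low oxygen were followed through 40 genes, chosen by function from the glycolytic enzymes, the glucose and lactate transporters, the kinases that hold back pyruvate oxidation, and the hypoxia-inducible factors (HIFs) with genes known to be HIF targets. All 40 had a row in the count table of 37887 genes, and 38 were among the 15355 genes with enough counts to be tested. RNA-seq was performed on MDA-MB-436/tet-MUC1shRNA cells, an established triple-negative breast cancer line selected to carry a doxycycline-inducible shRNA against MUC1. Of 6 libraries, 3 came from cells given the 0.1% DMSO vehicle and 3 from cells given 500 ng/ml doxycycline (DOX). Both groups carried the same inducible construct in a puromycin-selected line, although the sample titles call the vehicle libraries a control shRNA. The length of DOX treatment was not given for this line. No DOX-treated library with another shRNA was analysed here, so DOX itself, MUC1 silencing and other effects of the shRNA cannot be told apart. The question put to these genes was whether transcripts of glycolysis and of the HIF response shifted together in DOX-treated cells.

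Glycolysis splits glucose into pyruvate. In its upper steps ATP is spent to make a sugar that can be cleaved, and in its lower steps ATP and NADH are recovered. Pyruvate then either becomes lactate, through lactate dehydrogenase, or enters the mitochondria, where pyruvate dehydrogenase passes its carbon to the TCA cycle. HIF alpha subunits are hydroxylated by the EGLN prolyl hydroxylases while oxygen is present, bind VHL and are degraded. In hypoxia they persist, pair with ARNT and bind short words such as ACGTG near genes for glycolysis, angiogenesis and mitochondrial turnover. Many tumor lines use glycolysis heavily even with oxygen present, and triple-negative breast cancers are among them.

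The libraries held 18678307 to 27825546 counts, and TMM factors lay between 0.9869 and 1.013. MUC1 had 93, 84 and 102 counts with vehicle and 72, 51 and 34 with DOX, so the groups did not overlap, and it fell by 0.84 on the log2 scale (SE 0.214, adjusted p = 0.00119; every adjusted p is from the quasi-likelihood F test in edgeR, Benjamini-Hochberg adjusted over all tested genes, unless another tool is named). Levels are given in counts per 1000000 counts of the library (CPM), with TMM-scaled library sizes. Of the receptors that define triple-negative lines by their absence, ESR1 and PGR were at or near 0 in every library and ERBB2 was present, and the 3 summed to 42.9 to 47.6 CPM with vehicle and 39.1 to 39.6 with DOX. Epithelial markers differed between the groups. Over 11 such genes the summed level ran from 549.9 to 586 CPM with vehicle and from 1109.8 to 1150.1 with DOX, with 5 of 7 tested genes higher and 2 lower, and with GRHL2 at 0 in every library and KRT19 and RAB25 at or near 0. KRT8 was the largest part of that sum, at 426 CPM with vehicle and 825 with DOX. Over 5 mesenchymal markers the sum was 1846 to 1878 CPM with vehicle and 1823 to 1868 with DOX, with 1 gene higher and 4 lower. This near-level sum hides a rise of FN1 from 962 to 1285 CPM and a fall of VIM from 718 to 417. Over 3 blood cell markers the sum was 3 to 3.41 CPM with vehicle and 5.48 to 8.54 with DOX, with both tested genes higher, and over 2 adipocyte markers it was at most 0.575. Mitochondrially encoded transcripts took 3.35% to 4.17% of counts with vehicle and 4.94% to 5.22% with DOX. The part of these differences in the results below was not tested.

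The 38 tested genes did not move as a block. With DOX, 11 rose, 15 fell and 12 passed no threshold, at an adjusted p under 0.05. In bulk RNA, fewer cells with a transcript and less of it per cell cannot be told apart. Rises made up 28.9% of the tested members, where 25.2% of all tested genes rose, and falls made up 39.5%, where 23.6% of all tested genes fell. The median log2 fold change of the members was -0.036, and that of all tested genes was 0.000583. The members were more abundant than most genes, with a median level of 85.7 CPM against 18.2 CPM over all tested genes, and the part of that level in these shares was not tested. In 27 members (71.1%) the DOX and vehicle libraries did not overlap, where this held for 54.8% of all tested genes. Past a fold of 2 as well, no member was higher, in edgeR, DESeq2 or limma-voom, nor at an unadjusted p under 0.05, while 2.21% of all tested genes were. In the other direction 2 members passed, PGAM1 and PDK4, beside 3.74% of all tested genes.

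Arranged along the pathway, the calls differed by step. SLC2A1, 1 of 2 glucose transporters, and 4 of 11 upper glycolysis genes (36.4%) rose, and lower glycolysis, other than PGK1, and lactate dehydrogenase fell. Over all tested genes 25.2% rose and 23.6% fell, and these role groups are small. In upper glycolysis 1 gene fell (9.09%), and the median log2 fold change was 0.08, which moved to 0.04 without DOX replicate 1 and to 0.11 without DOX replicate 3. The gene that fell, ALDOA, lost its call without vehicle replicate 3 or DOX replicate 2, and TPI1 was called lower as well with library totals only. In lower glycolysis 0 of 6 rose and 5 fell (83.3%) by edgeR, with a median of -0.26, and 0 rose there at an unadjusted p under 0.05. The summed level of the upper enzymes was 1989 ± 29.8 CPM (SD, n = 3) with vehicle and 2046 ± 19.6 with DOX, which is 103% of the vehicle level. That of the lower enzymes was 5667 ± 42.9 CPM with vehicle and 4502 ± 59.5 with DOX, or 79.4%. Over all 17 glycolytic enzymes together the sum went from 7657 ± 71.3 to 6547 ± 42.4 CPM, and every DOX library lay below every vehicle library. These sums weigh the most abundant genes most. GAPDH was the largest part of the lower sum, at 2837 CPM with vehicle and 2144 with DOX. TPI1 was the largest part of the upper sum as counted, at 1087 and 1058 CPM. ALDOA entered these sums at only 11 CPM with vehicle and 8.52 with DOX. Its level is uncertain, since 42.31% of its exon bases are shared with AC093512.2 on the same strand. The upper sum and the sum over all 17 enzymes carry that uncertainty.

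**Figure D1:**
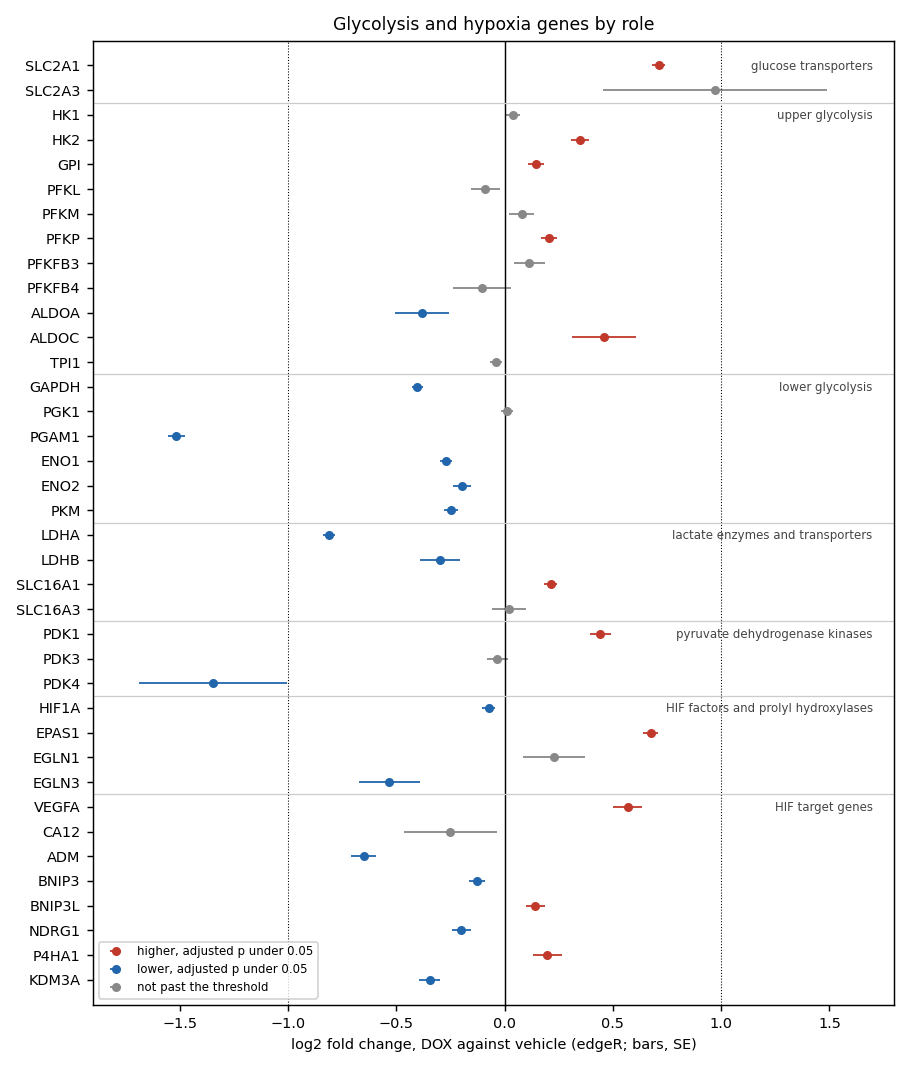
Log2 fold change of DOX against vehicle (horizontal axis) for each of the 38 tested genes (vertical axis), in order of their role, with the SE from edgeR as bars and dotted lines at a fold of 2. Red and blue points passed an adjusted p under 0.05. PGAM1 at -1.52 and PDK4 at -1.35 lie left of the dotted line, and SLC2A1 at 0.71 is the highest of the genes that rose.

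The letters ACGTG were searched in RefSeq promoter windows (GRCh38.p14, 250 bases before to 50 after a transcript start). Either strand was read, where the other strand reads CACGT, and CACGTG was counted once. No other form of the HIF word was searched, so a window without these letters may still hold one. Windows were matched by symbol for 35 members, and SLC2A3, SLC16A1, VEGFA, BNIP3L and NDRG1 had none. Some genes have several windows. By window, 24 of 63 (38.1%) held the letters, where 21.41% of all 35116 windows did. By gene, 20 of 35 (57.14%) held them in at least 1 window, where 24.87% of 27305 genes did. Those 27305 include genes not tested here, and the members were chosen in part as HIF targets, so these shares are a description only. The windows of PGAM1 and EGLN1 start 1658 and 2757 bases from the nearest coding transcript start in GENCODE 29, and without those 2 genes 19 of 33 (57.58%) held the letters. Here 3 windows are shown, with the letters in capitals, for textbook HIF targets that respectively rose, passed no threshold and fell.
HK2, chr2:74834920-74835219, plus strand: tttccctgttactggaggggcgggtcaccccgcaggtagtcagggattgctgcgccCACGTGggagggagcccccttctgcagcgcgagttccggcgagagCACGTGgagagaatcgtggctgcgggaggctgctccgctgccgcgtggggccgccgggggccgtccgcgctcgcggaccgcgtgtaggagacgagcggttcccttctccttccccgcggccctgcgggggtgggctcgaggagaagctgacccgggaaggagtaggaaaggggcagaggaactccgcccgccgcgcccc
PGK1, chrX:78103998-78104297, plus strand: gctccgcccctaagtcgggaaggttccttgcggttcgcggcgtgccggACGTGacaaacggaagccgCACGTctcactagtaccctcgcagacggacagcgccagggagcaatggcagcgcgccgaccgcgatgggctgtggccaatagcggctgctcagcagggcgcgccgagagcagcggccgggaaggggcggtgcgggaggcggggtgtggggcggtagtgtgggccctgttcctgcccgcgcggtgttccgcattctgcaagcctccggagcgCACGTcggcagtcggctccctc
LDHA, chr11:18394313-18394612, plus strand: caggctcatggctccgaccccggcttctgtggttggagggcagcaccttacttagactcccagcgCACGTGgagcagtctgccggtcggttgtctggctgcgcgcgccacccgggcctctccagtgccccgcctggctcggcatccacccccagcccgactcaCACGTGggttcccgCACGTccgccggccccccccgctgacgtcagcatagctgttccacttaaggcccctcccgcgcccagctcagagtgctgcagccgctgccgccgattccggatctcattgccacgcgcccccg

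The HK2 window held 2 sites, the PGK1 window 3 and the LDHA window 3. These 3 genes were picked because their calls differ, so their directions are no result about the letters. Among tested members with the letters in a window, 6 of 18 rose and 5 fell, with a median log2 fold change of 0.05. Among those with a window and without the letters, 2 of 15 rose and 9 fell, with a median of -0.25. Over all tested genes, 27% of 3572 with the letters rose and 24.5% fell, beside 27.5% and 24.2% of 7615 without them. The difference between the 2 small sets of members was not tested. These counts describe letters, not bound factors.

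Glucose enters through facilitative carriers, and SLC2A1 (GLUT1, chr1:42925375-42959176 on the minus strand, GRCh38) is the main basal carrier of most tumor lines. It measured 384, 369.6 and 369 CPM with vehicle and 610.1, 627 and 601 CPM with DOX. All 3 DOX libraries were far above the vehicle libraries, and the rise of 0.71 on the log2 scale (SE 0.0308, 1.64-fold, adjusted p = 8.47e-21) was the largest among members that rose. SLC2A3, a high-affinity carrier, was close to the detection limit, with 8, 3 and 12 counts in vehicle and 19, 19 and 8 in DOX libraries. Its groups overlapped, and its log2 fold change of 0.97 (SE 0.518) did not pass the test (adjusted p = 0.12).

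Hexokinase traps glucose as its phosphate. HK2, the inducible isozyme on the outer mitochondrial membrane, measured 103, 96.5 and 104 CPM with vehicle and 132, 129.9 and 125 CPM with DOX. The groups were apart, and HK2 rose by 0.35 on the log2 scale (SE 0.042, adjusted p = 7.8e-09). HK1, the widely expressed isozyme, was the more abundant of the pair per length, at 45.8 CPM per kb of exon against 16.7 for HK2 with vehicle, and its groups overlapped (log2 fold change 0.04, adjusted p = 0.404). GPI, which turns glucose phosphate into fructose phosphate, rose by 0.15 (adjusted p = 0.00124).

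Phosphofructokinase commits the sugar to glycolysis. PFKP, its platelet isozyme and the most abundant of the 3 at 36.7 CPM per kb with vehicle, rose by 0.21 (SE 0.0367, adjusted p = 1.3e-05). The liver isozyme PFKL and the muscle isozyme PFKM had log2 fold changes of -0.09 and 0.08, neither past the test. PFKFB3 and PFKFB4, which set the level of the fructose bisphosphate that activates phosphofructokinase, had log2 fold changes of 0.11 and -0.10, and both had overlapping groups.

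Aldolase cleaves the sugar, and its isozymes went opposite ways at low levels. ALDOA measured 9.76, 11.1 and 12.2 CPM with vehicle and 8.87, 7.22 and 9.46 CPM with DOX, a fall of 0.38 on the log2 scale (SE 0.124, adjusted p = 0.0101). ALDOC measured 5.25, 5.13 and 4.61 CPM with vehicle and 6.15, 6.87 and 7.63 CPM with DOX, a rise of 0.46 (SE 0.148, adjusted p = 0.00992). Neither pair of groups overlapped, but the gaps were narrow, and both calls were lost when 1 library was left out. Without vehicle replicate 3 or DOX replicate 2 the adjusted p for ALDOA was 0.0612 or 0.0987. Without vehicle replicate 3 or DOX replicate 3 that for ALDOC was 0.0509 or 0.0511. In GENCODE 29, 42.31% of the exon bases of ALDOA also belong to AC093512.2 on the same strand, so that the level of ALDOA in this table is uncertain. TPI1, which interconverts the products of the cleavage, stood at 1079 to 1096 CPM with vehicle and 1044 to 1074 with DOX, groups that did not overlap but differed by only -0.04 on the log2 scale (adjusted p = 0.239).

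GAPDH, which makes the NADH of glycolysis and is often used as a reference gene, fell. It measured 2871, 2856 and 2785 CPM with vehicle and 2181, 2067 and 2185 CPM with DOX. All DOX libraries were lower, by 0.40 on the log2 scale (SE 0.0258, 1.32-fold, adjusted p = 7.16e-16). PGK1, the next enzyme and a textbook HIF target, did not pass the test, with 591 to 610.3 CPM with vehicle and 600.5 to 604 CPM with DOX (log2 fold change 0.01, SE 0.0289, adjusted p = 0.806). The sign of that value turned with library totals only, to -0.012.

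PGAM1, phosphoglycerate mutase, had the largest change of all members. It lies at chr10:97426160-97433441 on the plus strand (GRCh38, GENCODE 29) and measured 226, 222 and 222 CPM with vehicle and 78.3, 77.8 and 78 CPM with DOX. The libraries within each group were nearly level with one another and the groups far apart, with a fall of 1.52 on the log2 scale (SE 0.0382, 2.86-fold lower, adjusted p = 5.25e-28). PGAM1 has 13 named pseudogenes in the table, which together held 1.65% of the level of PGAM1 with vehicle and 2.68% with DOX. Reads shared with them, and with the near-identical PGAM4, could have been split by the counting.

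The last steps of glycolysis fell less. ENO1, the main enolase, measured 1398, 1363 and 1446 CPM with vehicle and 1177, 1172 and 1141 CPM with DOX, a fall of 0.27 on the log2 scale (SE 0.0275, adjusted p = 1.59e-10) with no overlap. ENO2, the neuronal enolase, fell by 0.20 (adjusted p = 0.000172). PKM, pyruvate kinase, fell by 0.25 (adjusted p = 2.29e-08), and gene-level counts do not separate its spliced forms.

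Lactate dehydrogenase carries pyruvate to lactate. LDHA (chr11:18394388-18408425, plus strand), its main subunit in tumor lines, measured 935, 915 and 933 CPM with vehicle and 537, 531 and 518 CPM with DOX. Every DOX library was well below every vehicle library, and LDHA fell by 0.81 on the log2 scale (SE 0.0286, 1.75-fold lower, adjusted p = 1.71e-23). LDHB, the subunit of oxidative tissues, measured 19.2, 17.6 and 20.1 CPM with vehicle and 16.2, 15.5 and 14.3 CPM with DOX. It fell by 0.30 (SE 0.0924, adjusted p = 0.00687) without overlap, though 33.42% of its exon bases are shared with AC010197.2 on the same strand. Of the lactate carriers, SLC16A1 (MCT1) rose by 0.21 (adjusted p = 1.77e-07), from 464 ± 4.32 to 538 ± 9.07 CPM, and SLC16A3 (MCT4), the exporter of glycolytic cells, did not pass the test (log2 fold change 0.02, adjusted p = 0.861).

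**Figure D2:**
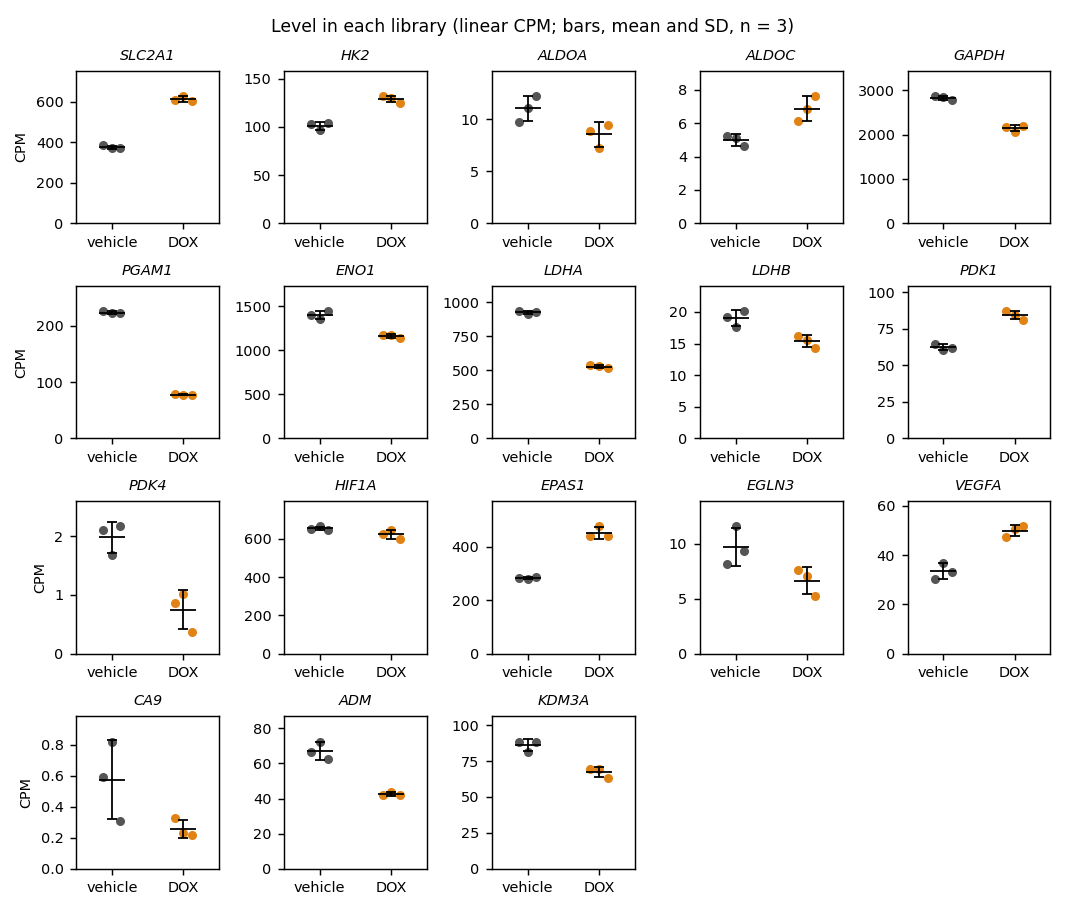
Level in CPM on a linear axis that starts at 0, for each of the 18 genes given with every library, with 1 point per library (3 vehicle, 3 DOX) and the mean and SD as bars. PGAM1, LDHA, GAPDH and ADM show DOX points below all vehicle points, SLC2A1 and EPAS1 show them above, and CA9 is near 0 with overlapping points.

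Pyruvate dehydrogenase kinases switch off the entry of pyruvate into the TCA cycle, and the 3 members went 3 ways. PDK1, a HIF target, measured 64.5, 60.5 and 61.9 CPM with vehicle and 87.1, 84.6 and 81.4 CPM with DOX. The groups were apart, and PDK1 rose by 0.44 on the log2 scale (SE 0.0485, 1.36-fold, adjusted p = 9.95e-10). PDK4, the kinase of fasting, measured 2.1, 1.68 and 2.17 CPM with vehicle and 0.869, 1.01 and 0.376 CPM with DOX. It fell by 1.35 (SE 0.341, adjusted p = 0.00117) with no overlap, on 41 to 56 counts per vehicle library and 7 to 26 per DOX library. PDK3 stood at 78.4 to 81.3 CPM with vehicle and 75.1 to 80.9 with DOX and did not pass the test. The summed level of the 3 kinases was 144.2 ± 1.61 CPM with vehicle and 163.3 ± 4.89 with DOX.

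The 3 members that fell furthest, PGAM1, PDK4 and LDHA, share a short word in their 3′ untranslated regions (UTRs). The word, ATCAGTA, had come up in an earlier search of these same data for 7-base words tied to falling transcripts, so its presence here is a description and no test. It was looked for on the transcript strand of GENCODE 29 3′ UTRs. The sites in the 3 most reduced members are shown first, then those in the other members that hold the word. The word is in capitals, with 10 bases on either side and GRCh38 positions.
PGAM1, chr10:97433402-97433428, plus strand: ctttttccatATCAGTAtaataaagga
PDK4, chr7:95584060-95584086, minus strand: ttgtaaaataATCAGTAtggtttatat
LDHA, chr11:18407729-18407755, plus strand: tgtgaactatATCAGTAgtgtacatta
PDK1, chr2:172602005-172602031, plus strand: aggaagtggaATCAGTAatcacaagtc
SLC16A1, chr1:112913337-112913363, minus strand: ttttcctagcATCAGTAgatttctggc

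PDK1 and SLC16A1 hold the word too and rose, so it did not go with a fall in every member. In all, 5 of 38 tested members (13.2%) held it, where 12.3% of 13007 tested genes with an annotated 3′ UTR did. The median log2 fold change was -0.81 over the 5 members with it and -0.03 over the others, beside -0.12 and 0.03 over all tested genes with and without it. The word also lies in the 3′ UTR of MUC1.

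Of the HIF alpha subunits, the rise was in EPAS1. EPAS1 (chr2:46293667-46386703, plus strand) measured 285, 279 and 286 CPM with vehicle and 440.2, 477 and 440.2 CPM with DOX. All DOX libraries were higher, by 0.67 on the log2 scale (SE 0.0337, 1.60-fold, adjusted p = 6.06e-19). HIF1A, the subunit most tied to glycolysis genes, measured 653, 665 and 648 CPM with vehicle and 625, 646 and 598 CPM with DOX. Its groups were apart by a narrow gap (646 below 648 CPM), and its fall of 0.07 (SE 0.0305, adjusted p = 0.0455) did not hold without vehicle replicate 1, vehicle replicate 2, DOX replicate 1 or DOX replicate 3, where the adjusted p ran from 0.102 to 0.346, nor without the filter on low counts (adjusted p = 0.0986).

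HIF alpha protein is set mainly by hydroxylation, which mRNA counts do not show. EGLN3, a hydroxylase that is itself a HIF target, measured 8.21, 11.6 and 9.37 CPM with vehicle and 7.6, 7.11 and 5.27 CPM with DOX. It fell by 0.53 on the log2 scale (SE 0.141, adjusted p = 0.00181), with every DOX library below the vehicle libraries. EGLN1, the main hydroxylase in most cells, had a log2 fold change of 0.23 and overlapping groups (adjusted p = 0.197).

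HIF target genes outside glycolysis were split. Of 10 members, 8 were tested, with 3 higher (37.5%), 4 lower (50%) and a median log2 fold change of -0.16. Over all tested genes 25.2% were higher and 23.6% lower, and with 8 genes the shares are coarse. VEGFA, the angiogenic growth factor, measured 30.5, 37 and 33.1 CPM with vehicle and 47.3, 50.7 and 51.7 CPM with DOX. It rose by 0.57 (SE 0.0667, 1.48-fold, adjusted p = 4.15e-09), all DOX libraries being higher. ADM, the vasodilator peptide adrenomedullin, measured 66.3, 72.5 and 62.3 CPM with vehicle and 41.9, 43.9 and 42 CPM with DOX. It fell by 0.65 (SE 0.058, 1.57-fold lower, adjusted p = 5.74e-12) with no overlap. VEGFA and ADM, both secreted factors induced by hypoxia, thus moved in opposite directions in the same libraries.

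KDM3A, a histone demethylase, measured 88.6, 81.2 and 88.5 CPM with vehicle and 69.3, 69.8 and 63.5 CPM with DOX. The groups did not overlap, and it fell by 0.35 on the log2 scale (SE 0.0499, adjusted p = 2.97e-07). P4HA1, a collagen prolyl hydroxylase subunit, rose by 0.20 (adjusted p = 0.0138), a call that was lost without vehicle replicate 2 (adjusted p = 0.182) or DOX replicate 3 (adjusted p = 0.0694). The paired mitophagy receptors BNIP3 and BNIP3L changed little and oppositely, with log2 fold changes of -0.13 (adjusted p = 0.00503) and 0.14 (adjusted p = 0.00566). The call for BNIP3L was lost without vehicle replicate 3 or DOX replicate 2 (adjusted p = 0.05, just over the threshold before rounding, and 0.0621), and BNIP3 has 39 named pseudogenes that held 8.66% of its level with vehicle. NDRG1, a stress-responsive gene, fell by 0.20 (adjusted p = 0.000228).

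CA9, the surface carbonic anhydrase used as a marker of hypoxia, was barely detected. It measured 0.593, 0.821 and 0.31 CPM with vehicle and 0.326, 0.233 and 0.215 CPM with DOX, from 4 to 20 counts per library. The groups overlapped, and CA9 did not pass the filter for testing. On the opposite strand, ARHGEF39 covers 38.5% of the exon bases of CA9, and the strand setting of the counting was not given. ANKRD37 was likewise not tested, at 0.0538 to 0.493 CPM over all libraries, partly under the limit of 0.108 to 0.161 CPM that 3 counts give. CA12, a related anhydrase, measured 2.83 to 4.03 CPM with vehicle and 2.37 to 3.01 with DOX, groups that overlapped (log2 fold change -0.25, adjusted p = 0.35).

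Ratios between paralogues within a library do not depend on how libraries are scaled. The log2 ratio of HK2 to HK1, per kb of exon, was -1.46 ± 0.00885 (SD, n = 3) with vehicle and -1.15 ± 0.0646 with DOX. That of EPAS1 to HIF1A went from -1.71 ± 0.0371 to -0.96 ± 0.0383, so that HIF1A remained the more abundant transcript per length in both groups. That of LDHA to LDHB, which carries the same-strand overlap at LDHB, went from 4.56 ± 0.08 to 4.05 ± 0.0658. In each of these 3 pairs the groups did not overlap, and the difference kept its sign without any 1 library, from 0.29 to 0.35 for the hexokinases, 0.73 to 0.77 for the HIF subunits and -0.54 to -0.46 for the dehydrogenase subunits. The ratios of PFKP and PFKM to PFKL were higher with DOX by 0.30 and 0.16. The ratio of ALDOC to ALDOA, which carries the overlap at ALDOA, was higher by 0.84, and that of BNIP3 to BNIP3L was lower, at -0.27. For ENO2 to ENO1 and SLC16A3 to SLC16A1 the groups overlapped, with differences of 0.07 and -0.18.

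**Figure D3:**
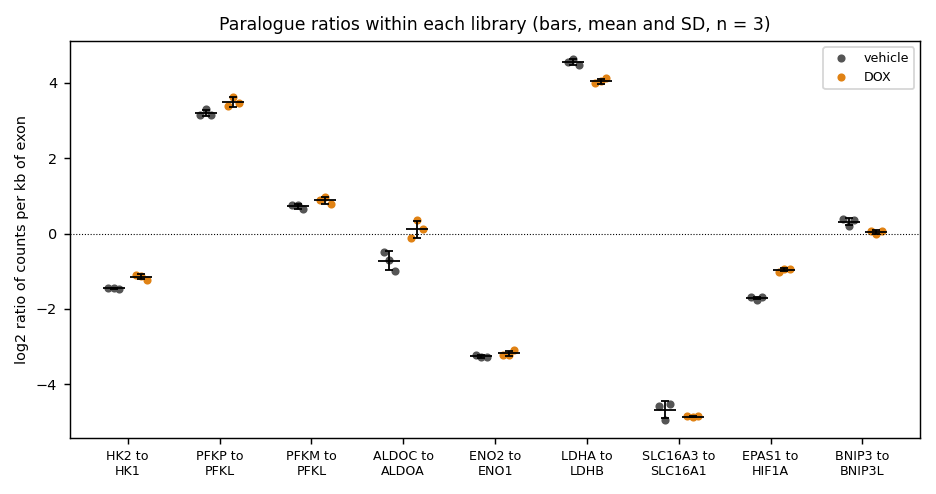
Log2 ratio of counts per kb of exon between members of a family (vertical axis) for 9 pairs (horizontal axis), with 1 point per library, vehicle in grey and DOX in orange, and the mean and SD as bars. The ratio of EPAS1 to HIF1A rose from -1.71 to -0.96 and that of LDHA to LDHB fell from 4.56 to 4.05, while points of the groups overlap for ENO2 to ENO1 and SLC16A3 to SLC16A1.

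Genes around the pathway were counted on lists drawn up by function. Counting each of 131 genes once, 112 were tested, of which 49 rose (43.8%) and 24 fell (21.4%), with a median log2 fold change of 0.09. The shares over all tested genes, against which each list is read, were 25.2% higher and 23.6% lower. Other isozymes of the same enzymes and carriers mostly fell, with 1 of 13 higher, 8 lower and a median of -0.46. PFKFB2, a further regulator of phosphofructokinase, rose by 0.47, whereas PGAM4 fell by 1.29 and the carrier SLC2A10 by 1.08. PGAM4 was scarce, at 2.26 CPM with vehicle and 0.917 with DOX. Reads from the near-identical PGAM1 could have been counted for it, which was not tested. Among regulators, 2 of 8 rose and 2 fell, 25% each and near the shares over all tested genes. TXNIP, which holds back glucose uptake, rose by 1.15 (24.5 to 54.4 CPM), and EMB, a chaperone of lactate carriers, by 0.53. ADPGK, an ADP-dependent glucokinase, fell by 1.36 (25.7 to 10.1 CPM), and TIGAR, which lowers fructose bisphosphate, by 0.48, with 42.59% of its exon bases shared with AC008012.1.

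In pyruvate oxidation 5 of 11 genes rose (45.5%) and 1 fell, where 25.2% of all tested genes rose and 23.6% fell. MPC1 and MPC2, which form the mitochondrial pyruvate carrier, rose by 0.70 and 0.43, and PDPR, a subunit of the phosphatase that acts on pyruvate dehydrogenase, fell by 0.51. In the TCA cycle 12 of 17 rose (70.6%) and 1 fell, with a median of 0.23. SUCLG2, a succinyl-CoA ligase subunit, rose by 0.87. IDH3A, whose fall of 0.22 was the exception and which has 38.86% of its exon bases under genes on the other strand, kept its call in neither DESeq2 (adjusted p = 0.0701) nor limma-voom (adjusted p = 0.0549), nor with the replicate block (adjusted p = 0.0628), without the filter on low counts (adjusted p = 0.0801), or without vehicle replicate 3, DOX replicate 2 or DOX replicate 3 (adjusted p = 0.268, 0.102 and 0.16). All 13 mitochondrially encoded protein genes rose, with a median of 0.45, led by MT-ND2 at 0.64 and MT-CO1 at 0.58.

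Other pathways that share intermediates with glycolysis each held more rises than falls, on short lists. Over all tested genes 25.2% rose and 23.6% fell. In the pentose phosphate pathway 4 of 8 rose (50%), led by RPIA (0.72) and PGLS (0.43), and 2 fell (25%), TKT (-0.28) and H6PD (-0.26). In the serine branch 2 of 5 rose (40%), PHGDH (0.28) and PSPH (0.25), and SHMT2 fell by 0.18. In gluconeogenesis and glycogen 7 of 13 rose (53.8%) and 1 fell (7.69%). The rises were led by PPP1R3C (1.43), which is on the list of other HIF targets too, and PCK2 (0.79). PPP1R3C was scarce, at 0.565 ± 0.224 CPM with vehicle and 1.48 ± 0.653 CPM with DOX, and its call was lost without DOX replicate 2 (adjusted p = 0.05, just over the threshold before rounding).

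Beyond the members, other parts of the HIF system held both rises and falls, with more rises. Over all tested genes 25.2% rose and 23.6% fell. Of the other HIF pathway components 5 of 13 rose (38.5%) and 3 fell (23.1%). ARNT, the partner of the HIF alpha subunits, rose by 0.58 (132 to 198 CPM), and VHL, which marks them for degradation, by 0.45. ARNT2 fell by 0.26, a call lost without vehicle replicate 1 or DOX replicate 3 (adjusted p = 0.124 and 0.112), and the coactivator CREBBP fell by 0.22. Without vehicle replicate 2, DOX replicate 1 or DOX replicate 3, 3 components rose in place of 5. Of other HIF target genes 13 of 27 rose (48.1%) and 5 fell (18.5%). Their median was 0.15, against -0.16 over the 8 tested targets among the members. DDIT4, an inhibitor of mTOR signaling with 41.16% of its exon bases under the antisense gene DDIT4-AS1, rose by 1.07, and ANGPTL4 (-1.17) and MXI1 (-0.73) fell, ANGPTL4 on 1.12 CPM with vehicle and 0.485 CPM with DOX. The call for ANGPTL4 was lost without vehicle replicate 1, vehicle replicate 3, DOX replicate 1 or DOX replicate 3 (adjusted p from 0.0511 to 0.0777).

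**Figure D4:**
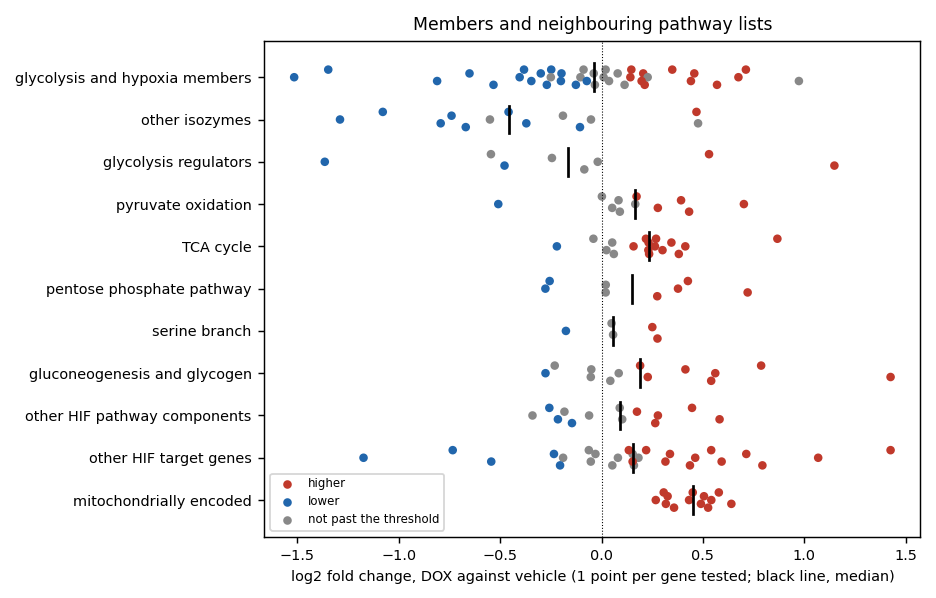
Log2 fold change of DOX against vehicle (horizontal axis) for the tested genes of the 40-gene set and of 10 neighboring lists (vertical axis), 1 point per gene, red and blue past an adjusted p under 0.05, with the median as a black line. Medians lie at -0.04 for the set, -0.46 for other isozymes, 0.23 for the TCA cycle and 0.45 for mitochondrially encoded genes.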

How the data were processed

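RNA was extracted in Trizol from cells cultured in triplicate, and TruSeq Stranded mRNA libraries were prepared. The submitters' processing notes name CASAVA 1.8.2, STAR 2.7.9a, featureCounts, DESeq2 1.24.0 and GRCh38.p7. The annotation release and the strand setting are not given in the sources used here. The deposited table, as the authors made it, holds whole-number counts per gene for each library, without pooling or normalization. Between 68.8% and 70.5% of values from 1 to 20 counts were even, so that counting errors may be larger than the counts imply, and halved counts were tried. Pairs of libraries within a group gave a chi-square over degrees of freedom of 2.67 to 5.13. It was computed on the counts before halving, and the part of the even counts in it was not tested. Nothing states that cultures were independent beyond the triplicate, so p-values measure the spread between these libraries. Reads carry no molecular identifiers, so the limit of 3 counts covers counting error only.

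Counts were tested in R 4.3.3 with the quasi-likelihood F test of edgeR 4.0.16 (TMM, filterByExpr, group as the only term, two-sided), with Benjamini-Hochberg adjustment over 15355 genes. SEs were derived from the F statistic, and the test was checked on simulated counts. DESeq2 1.42.0 and limma 3.58.1 (voom) were alternatives, as were other scalings, filters, a replicate block, halved counts, mitochondrial genes left out and each library left out in turn. Deviations of same-numbered libraries from their group means correlated at 0.0167, -0.0311 and -0.0359 on log2(CPM + 0.5), so the numbers were not taken as pairs. Exon lengths, overlaps and 3′ UTRs came from GENCODE 29.

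The 40 genes, the neighboring lists and the marker lists were chosen with earlier results of these data known. All members are accounted for. Those with values in every library are the 16 largest called changes and SLC2A1, HK2, LDHA, PDK1, HIF1A, VEGFA and CA9. From each neighboring list at most the 2 largest rises and 2 largest falls that passed the test are named, and 2 genes that this rule would name are not reported here.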

Additional observations from a re-analysis of the deposited data

How the results depend on the processing

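Each member had up to 15 alternative fits. Over the 26 called members these gave 389 values, of which 376 kept direction and call, 13 kept direction and lost the call, and 0 reversed. The lost calls were those of ALDOA, ALDOC, HIF1A, BNIP3L and P4HA1, all but 1 of them on leaving out a library. With the replicate block, 11 members were higher and 15 lower, as without it, and the block changed no member's call. Of the neighboring genes named, IDH3A lost its call with the block (adjusted p = 0.0628). DESeq2 and limma-voom each gave 11 higher and 15 lower as well. Leaving out each library in turn gave 9 to 11 members higher, 14 to 15 lower, 0 higher and 2 to 3 lower past a fold of 2, a median log2 fold change of -0.05 to -0.03 and, for MUC1, -1.02 to -0.75. With a fold over 1.5 in place of 2, 2 members were higher and 4 lower. With only genes of a mean of at least 50 counts, 1 member was lower past a fold of 2, since PDK4 was no longer tested, and the median was -0.0587. With library totals only, 16 members were lower, since TPI1 gained a call (-0.0608, adjusted p = 0.0495). Of members with no call, PGK1 turned to -0.012 with library totals only and -0.0126 with a mean of at least 50 counts, SLC16A3 turned to -0.00269 and -0.0027 under the same settings, and over the libraries left out SLC16A3 ran from -0.0961 to 0.0983. The cause of these turns was not tested. Depth limits SLC2A3, CA9 and ANKRD37, with at most 20 counts per library.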
